A study of Homo sapiens with 3 samples.

Results

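The interleukin genes, the genes of their receptor chains and the colony-stimulating factor genes CSF1, CSF2 and CSF3 were examined in RCC4 cells. This established line comes from a human clear cell renal carcinoma, has lost VHL function, and had been transduced with a lentiviral vector for Cas9. Members were the rows of the deposited table whose symbol is IL followed by a number and further letters or digits, without a hyphen; IL6, IL6R, IL6ST, IL11, IL11RA and pseudogene names were left out. The rule chose 83 of 60605 genes by name alone, and all 83 are annotated as protein-coding in GENCODE 29. All 3 libraries, biological replicates of 1 group prepared from 3 flasks each, came from cells kept for 24 h with TNF at 25 ng/mL and IFN-gamma at 1000 U/mL. Untreated cells were not analysed here, so every value is a level in treated cells or a ratio within a library, and no value is a response to the cytokines. RCC4 is a single cell line, and nothing here speaks of other tumours or of the cells around them.

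Interleukins are secreted signals that mostly act between immune cells, and epithelial and tumour cells make some of them and carry some of the receptors. A receptor is usually a pair of chains: a private chain that binds the ligand, and a shared chain, such as the common gamma chain or IL10RB, that serves several cytokines. Most of these receptors signal through JAK kinases and STAT factors, while the IL1 and IL17 families signal through adaptor proteins to NF-kappa-B. Soluble decoys and antagonists, such as IL18BP, IL1R2 and IL1RN, bind a ligand or its receptor without passing the signal on.

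Because IFN-gamma is known to act through GAS elements and TNF through NF-kappa-B, the sequence upstream of the members' start sites was searched for these motifs. RefSeq promoter windows (GRCh38.p14) were at hand for 20 of the 25 members detected as defined below, as 34 windows, since several genes have more than 1 start. None was given for CSF1, IL17RA, IL15, IL7 or IL31RA. The search covered the 250 bases before each start, on both strands. The stretches below are 30 bases long and show every match of GAS (TTCNNNGAA), of the core of the interferon-stimulated response element or ISRE (GAAANNGAA), and of an NF-kappa-B form (GGGNNTTTC), because these are the elements through which both cytokines are known to act. They are written 5′ to 3′ on the gene's strand with the match in capitals, which on the other strand reads as the reverse complement.
IL32, chr16:3065293-3065322, NF-kappa-B: tcctgtactcaGGGAGTTTCcccagccagc
IL18BP, chr11:71999539-71999568, ISRE core: ggttaaaaagtGAAAGTGAAatagagggtc
IL18BP, chr11:71999569-71999598, GAS: ggggcagtgctTTCCCAGAAggattgctcg
IL4R, chr16:27313914-27313943, NF-kappa-B: tccgcgcccagGAAAGCCCCgcgcggcgcg
IL15RA, chr10:5978155-5978184, GAS: tgcagcaggaaTTCGGCGAAgtggcggagc
IL15RA, chr10:5977587-5977616, ISRE core: aaagcaaaagcGAAAGCGAAtgcgactggc
CSF2, chr5:132073588-132073617, GAS: tgggctgtcggTTCTTGGAAaggttcatta
CSF2, chr5:132073609-132073638, NF-kappa-B: ggttcattaatGAAAACCCCcaagcctgac
IL27RA, chr19:14031683-14031712, NF-kappa-B: agccccagccgGGGACTTTCcgtcgcgggg
IL1R1, chr2:102142248-102142277, GAS: atgatccctttTTCACAGAAgaggaaacgg
IL18R1, chr2:102356255-102356284, ISRE core: cacacctctctTTCACTTTCcacggtagtc

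GAS was found in 4 of the 34 windows, against 6.57% of all 34961 windows of this length in the table. The ISRE core was found in 3 against 6.88% and the NF-kappa-B form in 4 against 4.18%. The other motifs searched were AP-1 (TGANTCA), in 6 windows against 6.54%, and the hypoxia response core (ACGTG), in 2 against 18.5%. In IL18BP the ISRE core began 67 bases and the GAS match 37 bases before 1 of 4 listed starts, and these were the only ISRE and GAS matches within a single window. All 250 bases of that IL18BP window, and of the windows that hold the IL4R and IL18R1 matches, lie in exons annotated in GENCODE 29, while those of CSF2 and IL1R1 hold no exon base. The windows with the IL32 and IL27RA matches hold 106 and 60 exon bases. Those with the ISRE and GAS matches of IL15RA hold 85 and 141. The IL32 match began 99 bases before 1 of its starts and lies, like those of IL15RA, inside the annotated span of the gene. Windows of 1 gene can overlap, so they are not independent, and a match of letters describes the sequence and is not a bound site.

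The libraries held 26264283 to 33458691 reads assigned to genes. Replicate 1 stood apart: the common biological coefficient of variation, which summarises the spread between libraries over all detected genes, was 0.282 with all 3 libraries and 0.0732 without replicate 1. Markers fixed for other cell types were at or near 0. All 6 T cell markers were listed at 0 reads, and PTPRC, carried by blood cells, was too. The summed level was 0 to 0.221 CPM for the 4 B cell markers, 1.33 to 1.84 for the 6 myeloid markers and 0.184 to 0.515 for the 4 endothelial markers. Among these lists ITGAM alone was detected, with 46, 32 and 52 reads. All 6 renal carcinoma epithelial markers were detected, against 51.4% of protein-coding genes, and their summed level was 1336 to 1882 CPM. The keratin gene KRT8 held the most reads of this list, at 34121, 24333 and 30618. PAX8 had 304, 276 and 381 reads, with 95.7% of its exons inside the spans of other genes. PAX2, a renal lineage factor, had 1368, 1339 and 1598 reads.

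A gene was called detected at 1 CPM or more (reads relative to library size, scaled with TMM) in every library. By this measure 25 of the 83 members (30.1%) were detected, against 51.4% of 19861 protein-coding genes and 18.6% of all genes in the table. At 10 CPM the count was 10 of 83 (12.0%), against 36.8% of protein-coding genes. A further 4 members, IL20RB, IL17D, IL3RA and IL12RB2, had 10 or more reads in some library without reaching detection. Another 20 had at most 8 reads in any library, and 34 (41.0%) were listed at 0 reads in every library, against 28.7% of protein-coding genes. IL20RB, a chain of the receptors for IL19, IL20 and IL24, lay just outside with 1.47, 1.69 and 0.977 CPM in replicates 1, 2 and 3, and IL7 lay just inside with 1.10, 2.72 and 4.40 CPM.

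Detection is given by role beside the 51.4% of all protein-coding genes. Of 38 receptor chain genes 17 (44.7%) were detected, against 8 of the 45 other members (17.8%), which are cytokines, antagonists and 1 enzyme. Among the receptor families, that of IL17 led with 4 of 6 chains, followed by that of IL12 with 2 of 4. The IL10 family cytokines and the cytokines named IL17 had no detected member, of 6 and 5. IL25, which also belongs to the IL17 family, was grouped with the type 2 cytokines and was listed at 0. Detected members had a median transcript GC content of 54.4% and a median exon length of 4353 bases, against 48.2% and 2489 bases for the other 58. These are descriptions, and the part that length and GC content play in the counts was not tested. In RNA from whole cultures, a low level in all cells and a higher level in a few cannot be told apart.

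**Figure D1:**
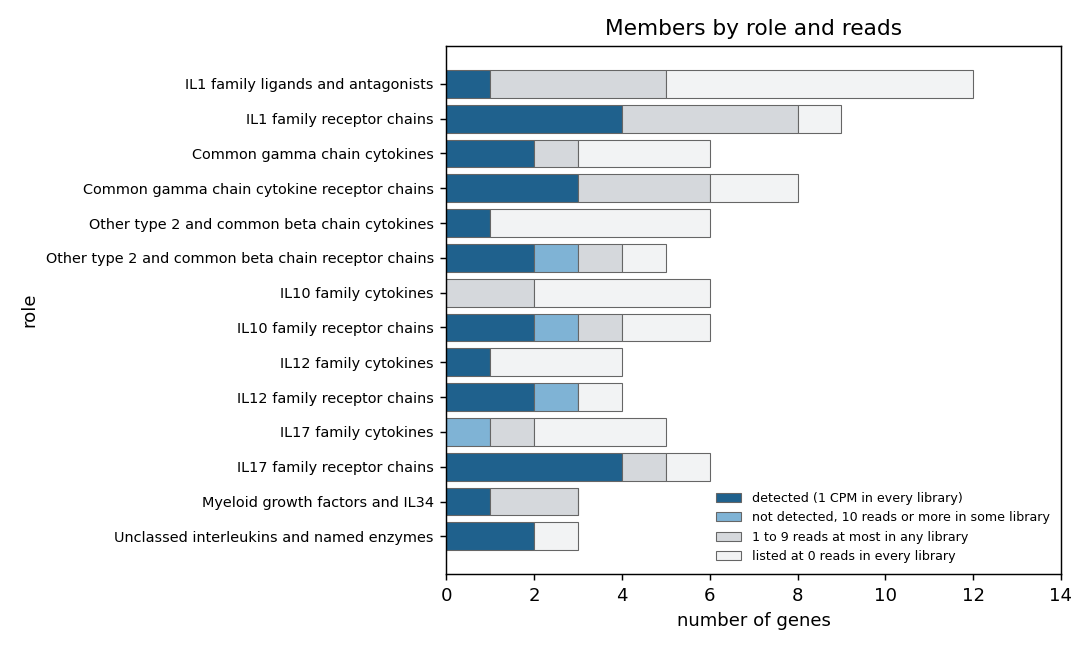
The 83 members by role, as the number of genes (horizontal axis) in each of 4 classes of reads. The receptor chain rows hold 17 of the 25 detected genes, and 34 genes are listed at 0.

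Some zeros fall on genes whose exons overlap other genes. For 9 members at least 80% of the exon length lies inside the spans of other genes, and all 9 were listed at 0: IL18, IL12A, IL12B, IL5, IL13, IL26, IL31, IL1RL1 and IL2RG. Over all protein-coding genes, 276 of 3177 with such overlap (8.69%) were detected, against 4967 of 9483 (52.4%) without any. The shares of these 2 groups listed at 0 were not computed. Over all protein-coding genes the share listed at 0 was 28.7%. Of the 51 members without any overlap, 14 were detected and 19 were listed at 0. Housekeeping genes are also at 0 in this table: NUP62, a nuclear pore protein that lies wholly inside other genes' spans, was at 0 reads. A 0 is therefore given below only as listed.

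Levels are given per length, as RPKM, the CPM per kilobase of the union of exons. They spanned 4782-fold, from 0.190 RPKM for IL17RD to 910.2 for IL32. The median of the 25 detected members was 1.63 RPKM, against 6.09 for the 10201 detected protein-coding genes. IL32 and CSF1 together held 78.0% of all reads assigned to members. In the order of levels, 11 of 24 neighbouring pairs differed by more than the replicate spread, meaning that the log2 ratio had 1 sign in all libraries and a mean over 2 SD. On the union of exons, the top of the order was resolved from IL32 down to IL17RA. IL17RA, IL15RA and IL13RA1 could not be ordered among themselves. Exons of IL4I1 and IL18BP lie partly inside the spans of other genes. With all of their reads divided by the exon length outside those spans, their means were 75.3 and 72.1 RPKM. Reads inside the spans were not taken out, so such values assume that no counted read fell there. The order of IL4I1 and IL18BP on that length was not compared with the replicate spread. Between IL17RB and IL1R1 no neighbouring pair differed beyond the spread.

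**Figure D2:**
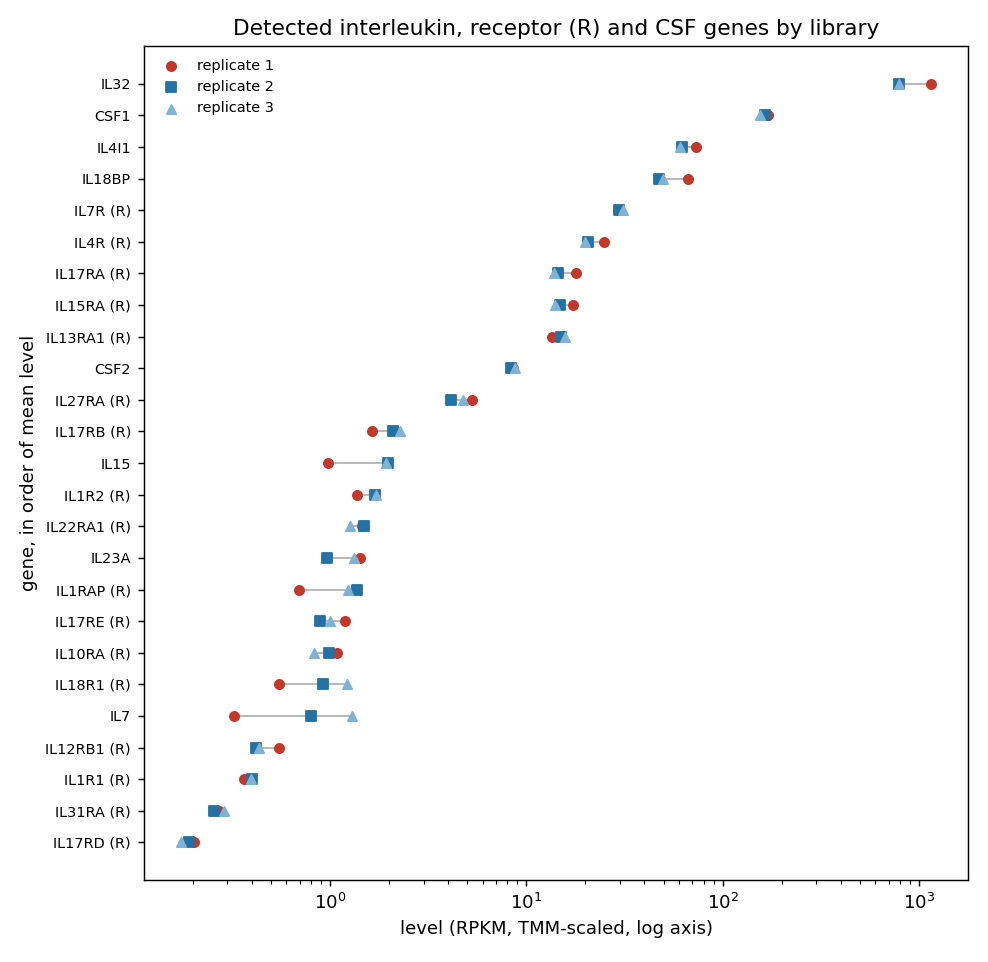
Level of each of the 25 detected members in RPKM on a log axis, 1 symbol per replicate, with receptor chains marked (R) and a line from the lowest to the highest library. IL32 lies above CSF1 in every library, and replicate 1 is the lowest symbol for IL15, IL1RAP, IL18R1 and IL7.

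The top of the order was held by IL32, CSF1, IL4I1 and IL18BP, and none of these is a receptor chain. IL32 is a proinflammatory cytokine without a close relative in the family (chromosome 16, 3065297 to 3082192, plus strand, GRCh38). It had 100341, 68953 and 87957 reads in replicates 1, 2 and 3, or 1152, 791 and 788 RPKM, and ranked 26th among the detected protein-coding genes. Replicate 1 was the highest, and replicates 2 and 3 were nearly equal. Other spans cover 21.5% of its exons. With all of its reads divided by the exon length outside them, its mean level was 1159 RPKM, which assumes that no counted read fell inside.

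CSF1, the growth factor of macrophages (chromosome 1, 109910242 to 109930992, plus strand), stood at 171, 165 and 156 RPKM and ranked 180th. Ratios between genes were formed on log2(RPKM + 0.1), which understates those of low genes. IL32 exceeded CSF1 5.46-fold, with log2 ratios of 2.75, 2.26 and 2.34 (mean 2.45 ± 0.26 SD, n = 3). IL34, the other ligand of the CSF1 receptor, had 0, 2 and 2 reads. The receptor gene CSF1R, usually a gene of myeloid cells, stood at 0.820 RPKM with 118, 102 and 159 reads.

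CSF2, which encodes GM-CSF, lies in the cytokine cluster of chromosome 5 (132073790 to 132076170, plus strand). It had 182, 179 and 240 reads, or 8.52, 8.37 and 8.77 RPKM, and varied little among the libraries (coefficient of variation 2.33%). CSF1 exceeded it 18.96-fold (log2 4.24 ± 0.10, SD, n = 3). CSF3, the granulocyte factor, had 2, 0 and 6 reads. Of the receptor chains for CSF2, CSF2RA was listed at 0 reads in each library and CSF2RB, the common beta chain, had 8, 8 and 4. CSF2RA, IL3RA, CRLF2 and IL9R lie in the regions shared by the X and Y chromosomes, and their values are uncertain, since the treatment of both copies in counting is not given in the sources used here. CSF3R was listed at 0.

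IL4I1 is an L-amino acid oxidase whose symbol comes from its induction by IL4 (chromosome 19, 49889654 to 49929539, minus strand). It stood at 73.5, 62.3 and 60.4 RPKM, with 5116, 4340 and 5385 reads. Some of its exons lie inside the spans of NUP62 and ATF5, and both of these genes were listed at 0 reads with all of their exons inside other spans. Whether reads of those genes contribute to the IL4I1 value was not tested.

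In the IL1 family, the soluble antagonist of IL18 was detected and no agonist was. IL18BP (chromosome 11, 71998541 to 72005715, plus strand), which binds IL18 and keeps it from its receptor, stood at 66.3, 47.3 and 49.7 RPKM with 7777, 5553 and 7477 reads. It was highest in replicate 1. Part of it, 24.5% of its exon length, lies inside NUMA1, which had 4857, 4409 and 5411 reads. With all IL18BP reads divided by the exon length outside that span, the level was 72.1 RPKM. IL18 itself was listed at 0, with all of its exons inside another span, so the ratio of decoy to ligand was not formed.

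The classical ligands IL1A and IL1B had 2, 6 and 8 reads and 0, 2 and 4 reads. The receptor antagonist IL1RN had 0, 0 and 2. IL33, an alarmin of epithelial and stromal cells, was listed at 0, as were IL36A, IL36B, IL36G, IL36RN and IL1F10, and IL37 had 6, 0 and 0 reads. None of these 10 genes overlaps another gene's span. In all, IL18BP was the 1 detected gene of the 12 IL1 family ligands and antagonists.

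Of the 9 receptor chains of the IL1 family 4 were detected, with means of 1.60 RPKM or less. IL1R1, the signalling receptor, stood at 0.364, 0.4002 and 0.398 RPKM. Its accessory chain IL1RAP stood at 0.695, 1.38 and 1.24 RPKM and was lowest in replicate 1. The decoy IL1R2 stood at 1.38, 1.70 and 1.72 RPKM. IL1R2 exceeded IL1R1 by 1.80 ± 0.11 on the log2 scale (SD, n = 3), and IL1R1 was below IL1RAP by a log2 ratio of -1.25 ± 0.42. Both ratios depend on the length used for IL1R1, since 66.3% of its exons lie inside the span of IL1R1-AS1. With all reads divided by the exon length outside other spans, the ratios were 0.44 and 0.040, the latter with the opposite sign. With 1 RPKM added in place of 0.1 they were 0.90 and -0.58.

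IL18R1, the chain that binds IL18, stood at 0.550, 0.922 and 1.21 RPKM with 65, 109 and 184 reads. Its partner IL18RAP had 2, 2 and 6 reads. IL1RL1, the receptor of IL33, was listed at 0 with 99.5% of its exons inside other spans, and IL1RL2, the receptor of IL36, had 0, 0 and 2 reads. IL1RAPL1 and IL1RAPL2, which act mainly in neurons, had 5, 0 and 2 and 4, 2 and 2 reads.

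Downstream of these receptors, 14 of the 16 genes fixed for IL1 and IL18 signalling and processing were detected, against 51.4% of protein-coding genes. The kinase IRAK1 was highest at 227 ± 65.7 RPKM (SD, n = 3), followed by the adaptor protein TAB2 at 24.7 ± 3.96 RPKM. CASP1, which cleaves the IL1B and IL18 precursors, stood at 1.47 ± 0.32 RPKM. IRAK3, an inhibitory member, had 9, 5 and 6 reads. PYCARD, the inflammasome adaptor, had 2 reads per library; other genes span 78.5% of its exons. SIGIRR, a receptor that dampens this pathway, stood at 3.27 ± 0.56 RPKM.

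Among the cytokines of the common gamma chain, IL15 and IL7 were the detected ones. IL15, which supports NK and memory T cells, had 208, 423 and 526 reads, or 0.975, 1.98 and 1.92 RPKM. IL7, a survival factor of lymphocytes, had 30, 74 and 153 reads, or 0.326, 0.803 and 1.30 RPKM. Both were lowest in replicate 1. IL2, IL9 and IL21 were listed at 0 and IL4 had 0, 4 and 0 reads.

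Their receptor chains included some of the highest members. IL7R, the receptor of IL7 and, with CRLF2, of TSLP, led the receptor chains (chromosome 5, 35852695 to 35879603, plus strand). It stood at 29.5, 29.7 and 31.0 RPKM, with a coefficient of variation of 2.84%. IL4R (chromosome 16, 27313668 to 27364778, plus strand) stood at 25.0, 20.6 and 19.9 RPKM. IL15RA, which binds IL15 and presents it to neighbouring cells (chromosome 10, 5943639 to 5978187, minus strand), stood at 17.2, 14.8 and 13.97 RPKM.

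The other chains of these receptors were not detected. IL2RG, the common gamma chain itself, was listed at 0 with 96.6% of its exons inside another span. IL2RB, the chain shared by IL2 and IL15, had 4, 4 and 6 reads and little overlap. IL2RA had 2, 0 and 0, IL21R had 2, 0 and 0, and IL9R was listed at 0. JAK3, the kinase that works with the common gamma chain, was also listed at 0 reads, without any overlap. TSLP and CRLF2 were listed at 0.

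Receptor and ligand levels of these cytokines differed widely within each library. IL15RA exceeded IL15 9.29-fold (log2 of IL15 over IL15RA -3.22 ± 0.69, SD, n = 3). The ratio was -4.01 in replicate 1 and -2.84 and -2.80 in replicates 2 and 3, and its mean was -2.82 without replicate 1. IL7R exceeded IL7 37.1-fold (log2 of IL7 over IL7R -5.21 ± 0.83), and without replicate 1 the mean ratio was -4.77. With 1 RPKM added in place of 0.1 they were -2.66 for IL15 and -4.14 for IL7. Both ratios kept their sign in each library. Other genes span 26.4% of the IL7 exons. With all IL7 reads divided by the exon length outside them, the ratio of IL7 to IL7R was -4.82.

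The receptor that non-blood cells use for IL4 and IL13, formed by IL4R and IL13RA1, had both chains detected. IL13RA1 (chromosome X, 118727572 to 118794539, plus strand) stood at 13.5, 14.97 and 15.7 RPKM. Its ratio to IL4R did not exceed the replicate spread, with log2 values of -0.88, -0.46 and -0.34 (mean -0.56 ± 0.28). Without replicate 1 it was -0.40 and passed, but the SD then rests on 2 libraries and the rule is weaker. IL13RA2, the decoy receptor of IL13, had 0, 0 and 2 reads. The ligand IL13 was listed at 0 and lies wholly inside another span. STAT6, the factor that this receptor activates, stood at 45.2 ± 4.19 RPKM.

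Among the other members of the type 2 and common beta chain groups IL31RA was detected. IL31RA, a chain of the IL31 receptor, stood at 0.274, 0.257 and 0.289 RPKM with 34, 32 and 46 reads. IL3RA had 16, 2 and 11 reads. IL5RA, IL3, IL5, IL25 and IL31 were listed at 0; all exons of IL5 and IL31 and 44.2% of those of IL5RA lie inside other spans.

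For the IL10 family, 2 receptor chains were detected and none of the 6 cytokines. IL22RA1, the epithelial chain of the IL22 receptor, stood at 1.45, 1.49 and 1.26 RPKM. IL10RA, the private chain of the IL10 receptor, stood at 1.09, 0.991 and 0.827 RPKM. Their shared partner IL10RB, a widely expressed gene, had only 6, 0 and 6 reads, with 54.3% of its exons inside another span. IFNLR1, which pairs with IL10RB to bind the lambda interferons, stood at 1.14 ± 0.16 RPKM (SD, n = 3).

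IL20RB had 40, 46 and 34 reads and IL20RA was listed at 0. IL22RA2, a soluble decoy of IL22, was listed at 0. IL19 and IL24 had 0, 0 and 4 and 0, 0 and 2 reads, and IL10, IL20, IL22 and IL26 were listed at 0. Of these cytokines IL26 alone lies inside another span.

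In the IL12 family, single subunits of heterodimeric cytokines were detected. IL23A, which forms IL23 with IL12B, had 46, 31 and 55 reads, or 1.43, 0.961 and 1.33 RPKM. IL12B and IL12A were listed at 0, both wholly inside other spans. IL27, the partner of EBI3 in the cytokine of that name, was listed at 0 without overlap. EBI3 itself, which is outside the name rule, stood at 33.7 ± 5.05 RPKM (SD, n = 3) with 1377, 1080 and 1365 reads.

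Of the receptors, IL27RA stood at 5.32, 4.13 and 4.76 RPKM. IL12RB1, shared by the IL12 and IL23 receptors, stood at 0.548, 0.420 and 0.435 RPKM. IL12RB2 stood lower in each library, at 0.0666, 0.133 and 0.0780 RPKM from 8, 16 and 12 reads. The log2 ratio of IL12RB2 to IL12RB1 was -1.57 ± 0.40 with 0.1 RPKM added and -0.43 with 1 RPKM added, so its size is set by the pseudocount. IL23R was listed at 0, with 45.3% of its exons inside another span. STAT4, which acts downstream of IL12, had 0, 2 and 8 reads.

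The IL17 receptor family was represented by IL17RA, the chain shared by its receptors (chromosome 22, 17084954 to 17115694, plus strand). IL17RA stood at 17.9, 14.5 and 13.9 RPKM with 4390, 3559 and 4365 reads. IL17RC, its partner for IL17A and IL17F, was listed at 0 without any overlap in GENCODE 29. IL17RB, the partner for IL25, stood at 1.64, 2.096 and 2.26 RPKM. IL17RE, the partner for IL17C and the neighbour of IL17RC on chromosome 3, stood at 1.19, 0.890 and 1.00 RPKM. IL17RD stood at 0.204, 0.193 and 0.174 RPKM.

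Each partner was far below IL17RA. The log2 ratios were -2.89 ± 0.43 for IL17RB, -3.78 ± 0.11 for IL17RE and -5.73 ± 0.13 for IL17RD (SD, n = 3), and all exceeded the replicate spread. With 1 RPKM added in place of 0.1 they were -2.45, -3.01 and -3.78. Of the ligands, IL17D was the highest with 41, 26 and 29 reads, just under detection. IL17C had 2, 0 and 6 reads, and IL17A, IL17B, IL17F and IL25 were listed at 0. IL17REL had 4, 0 and 0. Of 10 genes fixed for IL17 signalling 7 were detected, beside the same 51.4%, led by the NF-kappa-B inhibitor TNFAIP3 at 91.1 ± 8.44 RPKM. TRAF3IP2, the adaptor of IL17RA, had 13, 16 and 36 reads with 92.3% of its exons inside other spans. The antimicrobial protein gene LCN2 was listed at 0. IL16, a chemoattractant that binds CD4, was listed at 0 with 53.0% of its exons inside other spans.

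**Figure D3:**
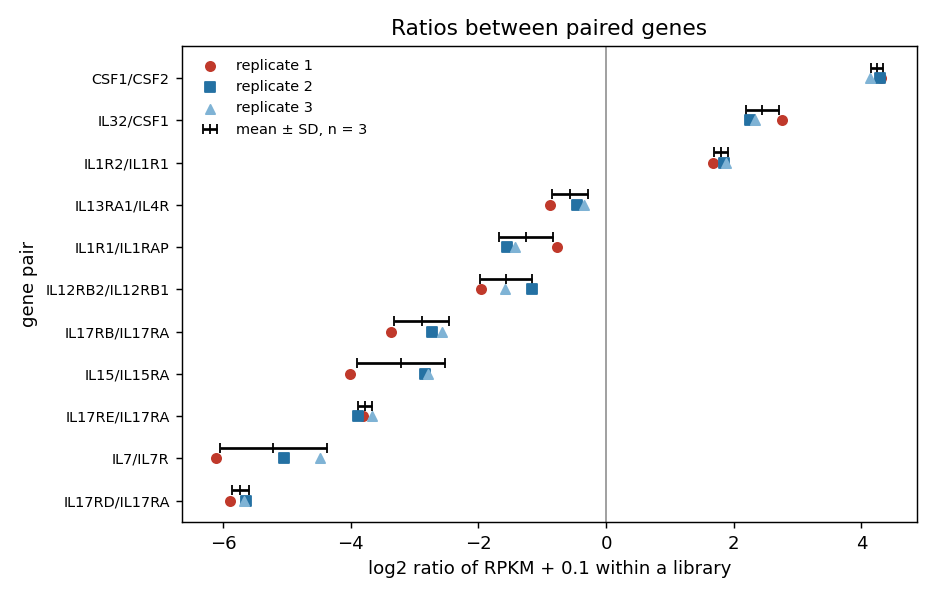
Log2 ratio of RPKM + 0.1 within a library for the 11 measured gene pairs, 1 symbol per replicate, with a bar for mean ± SD (n = 3). The means run from -5.73 for IL17RD over IL17RA to 4.24 for CSF1 over CSF2, and no pair changes sign between libraries.

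Of the 25 gene pairs fixed, 11 had reads enough to be measured, and 10 of them exceeded the replicate spread. With 3 libraries a two-sided exact sign-flip test cannot give a p under 0.25, so none was run. Of the 11 genes fixed for the JAK and STAT proteins, 8 were detected (51.4% of protein-coding genes), the lowest being JAK2 at 4.44 ± 2.65 RPKM.

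Many members neighbour each other in the genome. With a gap of at most 500000 bases, 40 of the 83 members fell into 12 clusters, and 7 of these 40 were detected, against 18 of the 43 others and 51.4% of all protein-coding genes. The share among other neighbouring genes was not computed. The IL1 ligand cluster on chromosome 2 (112773915 to 113134016) held 9 members, none detected. The IL1 receptor cluster on the same chromosome (101991844 to 102452565) held 6, of which IL1R2, IL1R1 and IL18R1 were detected. In the chromosome 5 cluster (132060529 to 132682676) CSF2 was the 1 detected member of 5, beside IL3, IL5, IL13 and IL4. The cluster of IL10, IL19, IL20 and IL24 on chromosome 1 held none. Exon overlap differs among these clusters and its part in the counts was not tested.

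Replicate 1 stood apart for the members as well. Between replicates 2 and 3 no detected member differed by more than 2-fold, and that share over all detected genes was not computed. The common biological coefficient of variation over all detected genes was 0.0732 without replicate 1. Replicate 1 was below 1/2 of the mean of replicates 2 and 3 for 2 of the 25, IL7 and IL15, against 13.3% of 11266 detected genes. It was more than 2-fold higher for none, against 0.186%. The log2 ratio of replicate 1 to that mean was -1.69 for IL7, -1.0 for IL15, -0.96 for IL18R1 and -0.91 for IL1RAP, and 0.54 for IL32 and 0.45 for IL18BP at the other end. IL15 lies at the threshold and did not pass it with DESeq2 size factors or the authors' scaling.

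These members differ in the GC content of their transcripts. All 7 detected members below 45% GC (a value chosen after the data were seen) were lowest in replicate 1: IL15, IL7, IL18R1, IL1RAP, IL13RA1, IL1R1 and IL7R. Of the 18 at 45% or more, 2 were. The same shares over all detected genes were not computed. Over all detected genes the median log2 ratio ran from -1.45 in the lowest of 20 GC bins to 0.40 in the highest. It was -0.35 in the bin with a median of 44.6% GC. With this trend removed the members' ratios ran from -0.57 to 0.52, and none was below 1/2. The upper end was held by 3 of the low-GC members, IL1R1 at 0.52, IL7R at 0.49 and IL13RA1 at 0.46, which lay above the trend.

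**Figure D4:**
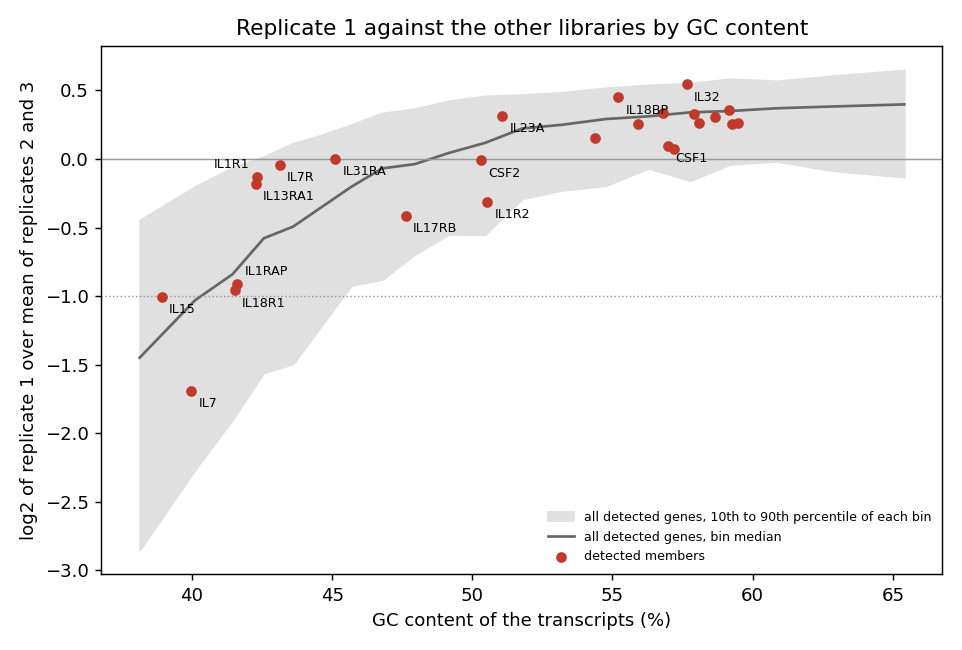
Log2 of replicate 1 over the mean of replicates 2 and 3 (vertical) against transcript GC content in percent (horizontal) for the 25 detected members, with the bin median of all detected genes as a line and the 10th to 90th percentile shaded; the dotted line marks a log2 ratio of -1. IL7 lies lowest at -1.69, and IL32 lies highest at 0.54.

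Leaving out replicate 1 moved the levels of 4 of these 7 members most. Without it the means were 2.02 RPKM for IL15, 1.09 for IL7, 1.35 for IL1RAP and 1.11 for IL18R1, against 1.63, 0.808, 1.10 and 0.896 with all libraries. The other 3 moved little: IL7R was at 31.5 without it and 30.1 with it, IL13RA1 at 15.9 and 14.7, and IL1R1 at 0.414 and 0.387. The IL32 mean was 819 RPKM without replicate 1 and 910.2 with it. TMM scaling was estimated anew on the libraries kept, so the means without replicate 1 also carry a change of scale. On that scale IL15, IL7R, IL13RA1, IL1R1 and IL32 lie above their values in replicates 2 and 3 given earlier. The coefficient of variation over the 3 libraries had a median of 12.7% for detected members and 16.7% for all detected genes. Of the 25 members 20 were under 20%, a share not computed for all detected genes. The rest were IL7, IL18R1, IL15, IL1RAP and IL32.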

How the data were processed

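Poly(A) RNA libraries of 3 biological replicates of treated RCC4 cells were made with a directional kit, per the labels' protocols. The submitters' processing notes name hg38, HISAT2 2.1.0, featureCounts 2.0.0, cutadapt 1.18 and FastQC. Which annotation, strand setting and feature type were counted is not given in the sources used here. What the authors deposited is a signal, gene counts divided by a size factor per library, as read from the values: 100% of nonzero values were whole multiples of 1 read within 0.01 of a read. The planned detection count was run on these recovered reads. In members under 10 reads, 33 of 34 nonzero values were even, so reads need not be independent molecules, and precision by counting is overstated. The directional kit marks strand, but without the counting setting a gene and its antisense partner cannot be told apart.

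Gene identifiers were matched without their version to GENCODE 29 (58337 of 60605), which need not be the authors' annotation. Library scaling was TMM (edgeR 4.0.16 under R 4.3.3), and DESeq2 1.42.0 gave alternative size factors. RPKM used the union of exons, although counted reads may lie outside exons, and ratios used log2(RPKM + 0.1). Where the exon length outside other genes was used, all reads of a gene were divided by that length. GC content was the mean over a gene's transcripts. There is 1 group, so no test between groups and no p-value was made. Every detected member was named with its values in each library, members with 10 or more reads with reads, and the rest as groups. Members, lists and pairs were chosen with earlier results of these data known, and the motif forms were shortened after a first search. Alternatives were other scalings, detection levels, pseudocounts, exon lengths, GC correction and each library left out. When a library was left out, TMM scaling was estimated anew on the others.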

Additional observations from a re-analysis of the deposited data

How the results depend on the processing

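The count of 25 detected members was 25 with DESeq2 size factors and with the authors' scaling, 29 at 0.1 CPM and 27 at 10 reads in every library, and fell to 10 at 10 CPM; with each library left out it ran from 25 to 26. The median level of the detected members, 1.63 RPKM, ran from 1.51 to 2.02 when libraries were left out, the highest without replicate 1. TMM scaling was estimated anew each time. The common biological coefficient of variation of 0.282 ran from 0.0732 (without replicate 1) to 0.376. The 2 members low in replicate 1 became 1 with DESeq2 size factors, 1 with the authors' scaling and 0 with the GC trend removed. The number of pairs past the replicate spread was 10 under each scaling and with a pseudocount of 1 RPKM. It was also 10 with GC correction and with the exon length outside other genes. With a library left out it was 10 to 11, where the SD rests on 2 libraries and the rule is weaker. GC correction leaves a pair's mean nearly unchanged by its construction. The ratio of IL1R1 to IL1RAP reversed to 0.040 with the exon length outside other genes. The ratio of IL13RA1 to IL4R passed the spread at -0.65 with that length, at -0.40 without replicate 1 and at -0.67 without replicate 3. No paired analysis was possible because there is 1 group. Depth limits what can be said of the 24 members with reads below detection. Of the 34 members listed at 0, 9 have at least 80% of their exons inside other spans and 19 have no overlap. A pseudocount of 1 RPKM made the log2 ratios of low genes smaller in size, to differing degrees, as for IL17RD over IL17RA (-5.73 to -3.78).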
